A study of Mus musculus with 54 samples.

Results

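The genes described here are the cytochrome P450 enzymes of families 1 to 3, taken as every row of the expression table whose symbol starts with Cyp1, Cyp2 or Cyp3 followed by a subfamily letter and a number. The rule found 50 genes and pseudogenes among 20162 rows, and 37 of the 50 reached the mean level of 1 needed for testing, as 11431 rows did. Livers of wild-type male C57Bl/6J mice were profiled after 20 weeks of oral di-isononyl phthalate (DINP, a plasticizer of soft polyvinyl chloride). All 4 groups, control included, were on an ad libitum high-fat diet from the age of 8 weeks. The doses were 0 (control, n = 14), 1.5 (n = 13), 15 (n = 13) and 150 mg/kg bw/d (n = 14), with 1 library a mouse. Lean mice and females were not part of the design.

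P450 enzymes of these families sit in the membrane of the endoplasmic reticulum, carry a heme, and insert oxygen into drugs, pollutants, steroids, bile acids and polyunsaturated fatty acids. Electrons reach them from NADPH through the reductase Por. In liver, many are switched on by receptors that sense foreign chemicals: Ahr acts on Cyp1 genes, the constitutive androstane receptor (CAR, gene Nr1i3) on Cyp2b and Cyp2c genes, and the pregnane X receptor (PXR, gene Nr1i2) on Cyp3a genes. Several members are expressed mainly by hepatocytes around the central vein, and some differ between male and female mice.

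Many members are recent duplicates that stand side by side in the genome. The annotation of build GRCm38 held 48 of the 50, 42 of them protein coding. Most Cyp2c and most Cyp2d genes formed clusters on chromosomes 19 and 15, with Cyp2c23 apart from the others on chromosome 19, the Cyp2a, Cyp2b, Cyp2f and Cyp2g genes a cluster on chromosome 7, the Cyp3a genes lay on chromosome 5 and the Cyp2j genes on chromosome 4. Of the 42 coding sequences, 22 were over 90% identical to that of another member. Cyp2a4 and Cyp2a5 shared 98.4% of their bases, Cyp3a25 and Cyp3a59 97.5%, Cyp2c67 and Cyp2c68 97.1%, Cyp2a12 and Cyp2a22 97.0% and Cyp2c37 and Cyp2c50 96.1%. How the authors' counting split reads between such pairs is uncertain, so the level of the weaker partner of a pair is the less certain one. The stretch that codes for the heme-binding cysteine shows this likeness. The 30 bases below were found by translating each coding sequence and searching for the pattern phenylalanine, any 2 residues, glycine, any 3 residues, cysteine, any residue, glycine; capitals mark the cysteine codon. The pattern was present in 41 of the 42 coding members, with 34 distinct sequences; for genes with several coding transcripts one that held it was preferred. In all 34 Cyp2 members with the pattern the stretch ran across an exon junction, and in all 7 Cyp1 and Cyp3 members it lay in 1 exon.
Cyp2a5: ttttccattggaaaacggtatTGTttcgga
Cyp2a4: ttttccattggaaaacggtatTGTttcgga
Cyp2c37: ttctcaacagggaaacggataTGTgcagga
Cyp2c54: ttctcaacagggaaacggataTGTgcagga
Cyp2c50: ttctcaacaggaaaacggataTGTgcagga
Cyp2e1: ttttctgcaggaaagcgcgtgTGTgttgga
Cyp1a2: ttcggcttgggaaagcgccggTGCattggg
Cyp3a11: tttgggaatggacccaggaacTGCcttggc
Cyp2a5 and Cyp2a4 had the same 30 bases, as did Cyp2c37 and Cyp2c54. The stretch of Cyp2a5 lies on the forward strand at chr7:26841860-26841869 and chr7:26842878-26842897, and that of Cyp1a2 on the reverse strand at chr9:57677396-57677425.

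Values are TPM, a read abundance divided by transcript length, after a scaling between samples (scaled TPM), and levels of different genes are compared only on this length-divided scale. Column totals ran from 747258 to 1076439, and the sequencing depth behind them is unknown. Hepatocyte markers were high in all groups, with Alb at a mean of 19797, and the summed markers of Kupffer, endothelial, stellate and bile duct cells had group medians between 18.1 and 163. The 4 hemoglobin genes summed to medians of 686, 344, 701 and 620 in control, 1.5, 15 and 150 mg/kg, and at 1.5 mg/kg 3 of the 4 had an unadjusted p under 0.05, with 0 called and a median log2 fold change of -0.80. Of 4 adipocyte markers 3 were under a mean of 1 and the other, Cidea, had a log2 fold change of 1.44 at 150 mg/kg (adjusted p = 0.20). At 15 mg/kg against control 1 of 5 endothelial markers was called lower and 1 of 6 hepatocyte markers higher (14.2% of all rows were called). At 15 against 150 mg/kg 2 endothelial, 1 of 3 tested bile duct and 1 of 2 tested intestine markers were called lower. There 1 hepatocyte marker was called higher (20% of all rows were called). At 150 mg/kg against control 1 intestine marker was called higher (1.05, beside 2.17% of all rows). The part of these markers in the results was not tested. Control replicate 8 and 15 mg/kg replicate 7 stood apart. Their totals were 747258 and 849928, their median correlations with their own groups 0.936 and 0.908, and their summed members 3149 and 4191 against group medians of 6946 and 7540. These were the 2 lowest sums over members of all libraries. Others stood near them: 1.5 mg/kg replicate 9 had a total of 849922 and summed members of 4616, and 15 mg/kg replicates 6 and 8 each had a median correlation of 0.932 with their group. The members and the listed genes were also fitted without control replicate 8 and 15 mg/kg replicate 7, and every library was left out in turn for the named members.

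Cyp2e1, which oxidises ethanol, acetone and small solvents, was the leading member, with a mean of 2149 scaled TPM over the 54 livers, or 29.9% of the sum over members. It ranked 49 among all rows. Next came Cyp2c29, a fatty acid epoxygenase (517), Cyp2d26 (488), the male-biased steroid hydroxylase Cyp2d9 (473), the coumarin hydroxylase Cyp2a5 (444), Cyp2d10 (396), the drug-oxidising Cyp3a11 (369), the epoxygenase Cyp2j5 (341), the naphthalene-oxidising Cyp2f2 (239), Cyp2c50 (223) and the caffeine-oxidising Cyp1a2 (217). The 15 members with the highest means held 90.5% of the sum. At the other end, 13 members were under a mean of 1: Cyp2c55, Cyp2b10, Cyp2d12, Cyp2d38-ps, Cyp2g1, Cyp2c53-ps, Cyp1b1, Cyp1a1, Cyp2d11, Cyp2d67-ps, Cyp2d36-ps, Cyp3a41a and Cyp3a63-ps. The plot of member levels shows these ranges.

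**Figure D1:**
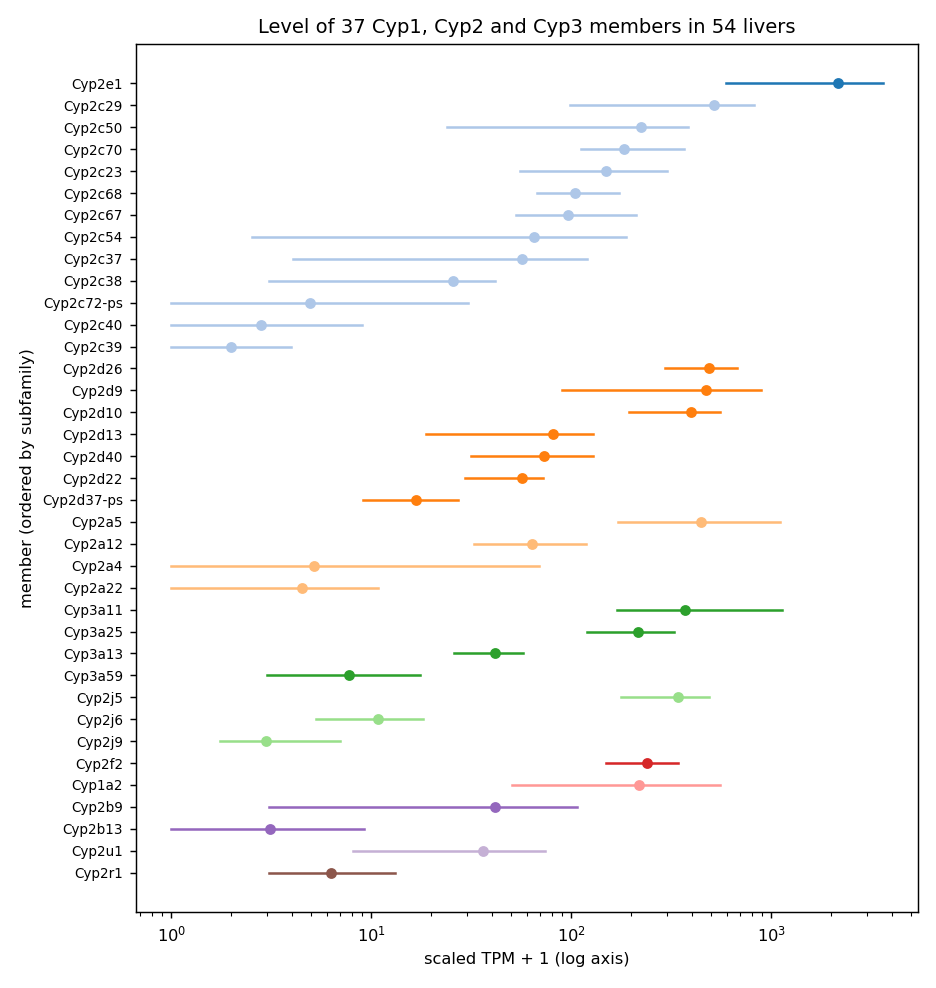
Mean (point) and lowest to highest value (line) of the 37 tested members over 54 livers, as scaled TPM + 1 on a log axis, ordered and coloured by subfamily. Cyp2e1 (mean 2149) lies above every other member, and lines such as those of Cyp2c54 and Cyp2a4 are far longer than those of Cyp2d26 or Cyp2j5.

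Values of a subfamily were also summed per mouse. A sum depends less than single members do on how reads were split between near-copies, though copies of different length still weigh a read differently. The Cyp2a sum was 430 ± 131 in control (SD, n = 14), 504 ± 155 at 1.5 (n = 13), 718 ± 252 at 15 (n = 13) and 417 ± 113 at 150 mg/kg (n = 14). The Cyp2c sum was 1327 ± 446, 1393 ± 458, 1596 ± 457 and 1376 ± 244 in the same order, the Cyp2d sum 1498 ± 321, 1702 ± 382, 1503 ± 257 and 1624 ± 161, and the Cyp3a sum 622 ± 131, 531 ± 95.6, 710 ± 272 and 657 ± 169. Over all subfamilies, a group mean lay more than 1 control SD above the control mean for Cyp2a at 15 mg/kg, for Cyp1a at 1.5 mg/kg (289.6 ± 155 against 167 ± 50.5), for Cyp2u at 1.5 mg/kg (44.3 ± 16.7 against 33.1 ± 10.2) and for Cyp2j at 150 mg/kg (394 ± 47.4 against 330 ± 51.5). All members together came to 6586 ± 1433, 7223 ± 1553, 7549 ± 1288 and 7421 ± 1092. No test was made on sums over members.

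Of the members most used as signs of receptor activation, 3 were under a mean of 1, and Cyp1a2 and Cyp3a11 were not called against control at any dose. Cyp1a1, the classical Ahr target, was above 0 in 2 of 54 livers and Cyp1b1 in 4. Cyp2b10, the classical CAR target, was above 0 in 27 livers, and its highest value was 1.01 in control, 1.01 at 1.5, 2.19 at 15 and 2.11 at 150 mg/kg. The smallest step in the table was 0.764 to 1.11, depending on the sample, so no fold change is given for these 3 genes. Cyp1a2, the other Ahr target, ran from 49.7 over a median of 175 to 238 in control and from 131 over 207 to 271 at 150 mg/kg, groups that overlapped, with 3 of 14 mice above the highest control, with a log2 fold change of 0.34 (95% interval -0.16 to 0.85, adjusted p = 0.58), which was 0.22 without control replicate 8. At 1.5 mg/kg it spread from 86.0 over 316 to 551, with 0.63 (0.12 to 1.15, adjusted p = 0.26), and with 0.51 (adjusted p = 0.31) without the libraries that stood apart. Of those 13 mice 8 lay above the highest control value of 238 and the other 5 below the control median, and the group was wider, with an SD of 155 against 50.5 in control. Cyp3a11, the usual PXR readout, had medians of 301, 269, 373 and 362 in control, 1.5, 15 and 150 mg/kg, and its log2 fold change at 150 mg/kg was 0.11 (-0.27 to 0.50, adjusted p = 0.86), and 0.03 without 150 mg/kg replicate 10. Its highest value, 1125, was in 15 mg/kg replicate 7, 1 of the libraries that stood apart.

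Among the abundant members, Cyp2e1 ran from 592 over 2022 to 2786 in control and from 1454 over 2378 to 3611 at 150 mg/kg. The high-dose mice reached higher than the controls, with 10 of 14 above the control median, but the ranges overlapped and the log2 fold change of 0.40 (0.02 to 0.79) had an adjusted p of 0.32. Cyp2c29 had a log2 fold change of 0.19 (-0.28 to 0.67, adjusted p = 0.78), Cyp2d9 of 0.38 (-0.05 to 0.81, adjusted p = 0.44), and the periportal Cyp2f2 of 0.03 (-0.17 to 0.23, adjusted p = 0.93), each at 150 mg/kg. Without control replicate 8 the values were 0.28 for Cyp2e1, 0.03 for Cyp2c29 and 0.24 for Cyp2d9. The sign for Cyp2f2 turned under other scalings and without that library. The interval for Cyp2f2 excludes a change of more than 0.23 upward. The intervals for Cyp2c29 and Cyp2d9 were wider and leave changes of over 0.6 in reach of the data. The plot of the readout members shows the spread behind these values.

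**Figure D2:**
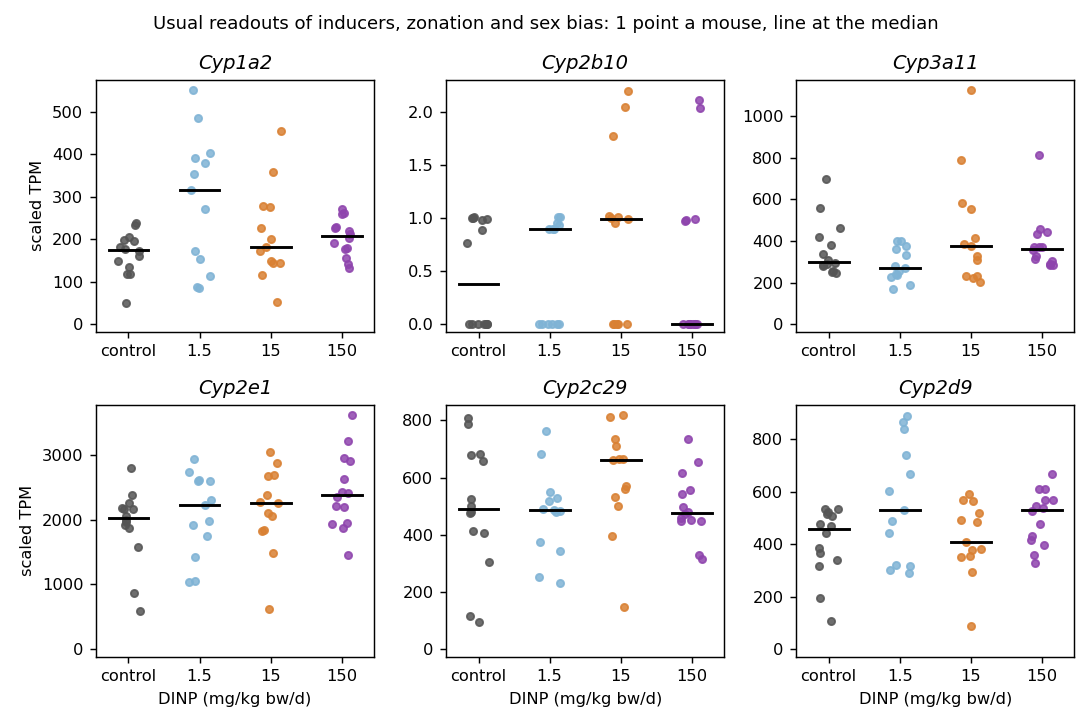
Scaled TPM of Cyp1a2, Cyp2b10, Cyp3a11, Cyp2e1, Cyp2c29 and Cyp2d9 in each mouse by DINP dose, with the median as a line (n = 14, 13, 13 and 14). The groups overlap in all 6 panels, Cyp2b10 stays at or below 2.19, and Cyp1a2 and Cyp2d9 spread most at 1.5 mg/kg.

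Against control, the limma test called 1 of 37 members at 1.5 mg/kg (1.2% of all rows were called), 5 of 37 at 15 mg/kg (14.2% of all rows) and 0 of 37 at 150 mg/kg (2.17% of all rows). Calls have an adjusted p under 0.05, with Benjamini-Hochberg adjustment over the 11431 rows. The 5 at 15 mg/kg were all higher than control, as were 7.57% of all rows, and 0 members were lower, as were 6.61% of all rows. At an unadjusted p under 0.05 the counts were 6, 7 and 7 of 37 at 1.5, 15 and 150 mg/kg, beside 12.3%, 27% and 14% of all rows. The share of members called at 15 mg/kg was thus close to that of all rows. Members with a log2 fold change above 0 numbered 28, 31 and 27 of 37 at 1.5, 15 and 150 mg/kg, with medians of 0.09, 0.18 and 0.07, beside 50.7%, 49.8% and 48.2% of all rows above 0. Members varied together from mouse to mouse, and the 3 comparisons share the control mice, so these counts are not independent of each other. Among the shared controls is replicate 8, which had the lowest sum over members of all libraries. The counts above 0 without it are not given. With a log2 fold change beyond 0.5 as well, 1, 2 and 0 members were called at 1.5, 15 and 150 mg/kg, beside 0.367%, 3.72% and 0.84% of all rows.

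**Figure D3:**
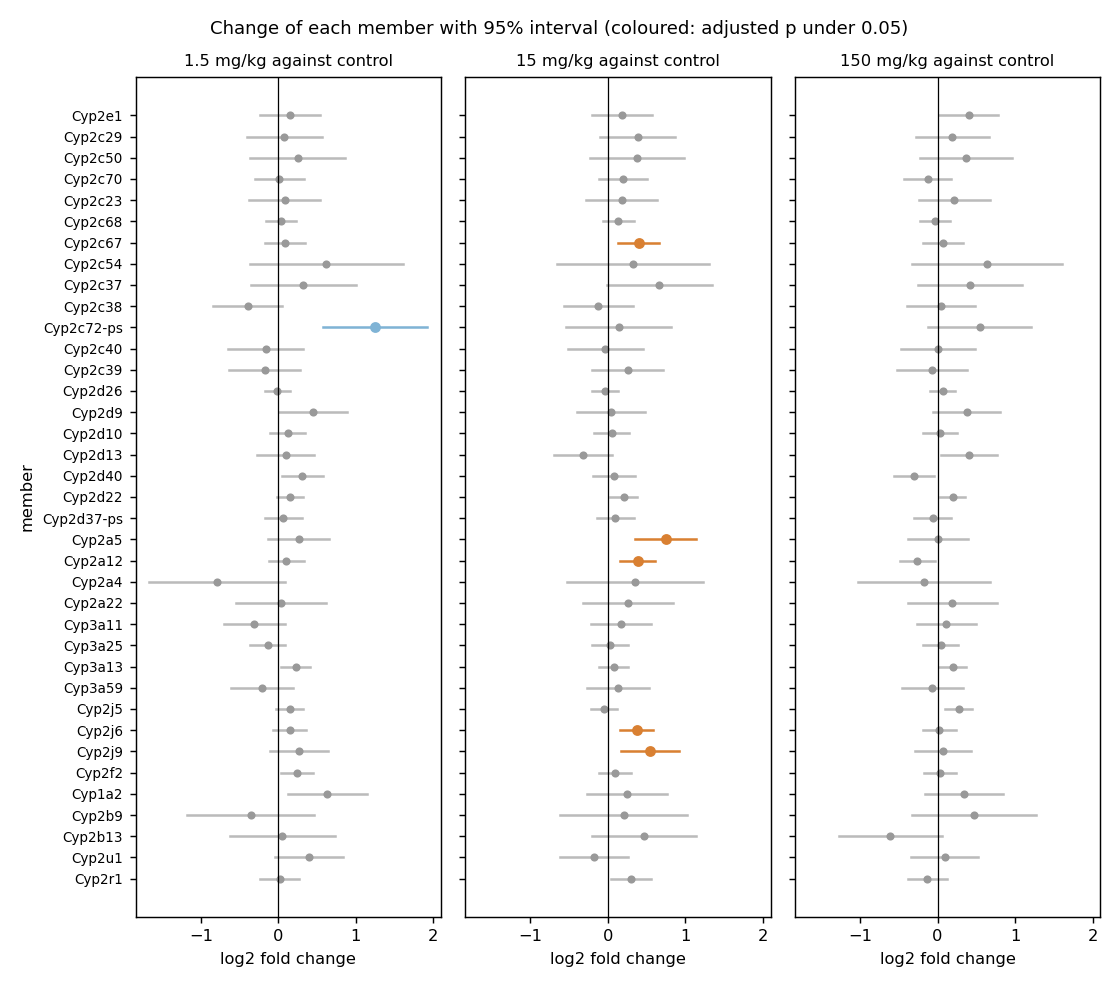
Log2 fold change of the 37 tested members against control with its 95% interval, for 1.5, 15 and 150 mg/kg, coloured where the adjusted p was under 0.05. Cyp2c72-ps is coloured at 1.5, the members Cyp2a5, Cyp2a12, Cyp2c67, Cyp2j6 and Cyp2j9 at 15, and none at 150 mg/kg.

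Cyp2a5 (chr7:26835305-26843548) had the largest log2 fold change of the 37 members at 15 mg/kg against control. It ran from 170 over a median of 350 to 591 in control, from 241 over 402 to 751 at 1.5, from 202 over 587 to 1103 at 15 and from 223 over 351 to 638 at 150 mg/kg. The 15 mg/kg group was high, with 12 of 13 mice above the control median, and the control and 150 mg/kg groups had near the same median. The log2 fold change at 15 mg/kg was 0.75 ± 0.20 (SE, adjusted p = 0.0070) against control and 0.74 ± 0.20 (adjusted p = 0.0054) against 150 mg/kg, and it was 0.01 at 150 mg/kg against control. The lowest 15 mg/kg value, 202, was that of replicate 7, and the lowest control value, 170, that of replicate 8. Leaving out any 1 library kept both calls. Its near-copy Cyp2a4, a steroid hydroxylase with a mean of 4.18, was highest in those same livers, at 68.2 and 18.3.

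Cyp2a12 (chr7:27029081-27037375), a steroid hydroxylase of the same cluster, ran from 39.5 over 59.0 to 84.3 in control, from 49.1 over 60.9 to 76.0 at 1.5, from 49.3 over 73.5 to 118 at 15 and from 31.8 over 49.7 to 60.9 at 150 mg/kg. The 15 mg/kg mice were the highest and the 150 mg/kg mice the lowest, and 12 of 13 mice at 15 mg/kg were above the 150 mg/kg median. Its log2 fold change was 0.65 ± 0.11 (adjusted p = 3.9e-05) at 15 against 150 mg/kg, the smallest adjusted p of any member, and 0.39 ± 0.11 (adjusted p = 0.015) at 15 mg/kg against control. The latter was lost when each sample was scaled to the same total (adjusted p = 0.053) and when only both groups were fitted (adjusted p = 0.055).

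Cyp2j6, of the same subfamily as the epoxygenase Cyp2j5, had medians of 9.05, 9.39, 11.1 and 9.42 in the 4 groups and ran up to 17.1 at 15 mg/kg against 11.0 in control. Its log2 fold change at 15 mg/kg was 0.37 ± 0.11 (adjusted p = 0.015), with 12 of 13 mice above the control median. Cyp2c67, with 12 of 13 mice above the control median of 80.8, had 0.39 ± 0.13 (adjusted p = 0.032). The low Cyp2j9, at medians of 1.01 in control and 2.04 at 15 mg/kg, had 0.54 ± 0.19 (adjusted p = 0.041). The Cyp2j9 call was lost in 6 of 10 other settings and the Cyp2c67 call in 2 of 11. Cyp2c72-ps, a pseudogene between Cyp2c29 and Cyp2c38 on chromosome 19, was the member called at 1.5 mg/kg. It had a median of 5.89 there and 1.94 in control, a log2 fold change of 1.25 ± 0.34 (adjusted p = 0.046), and lost the call in 5 of 10 other settings. Its neighbour Cyp2c29 had a log2 fold change of 0.08 at that dose, and of -0.09 without the libraries that stood apart.

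**Figure D4:**
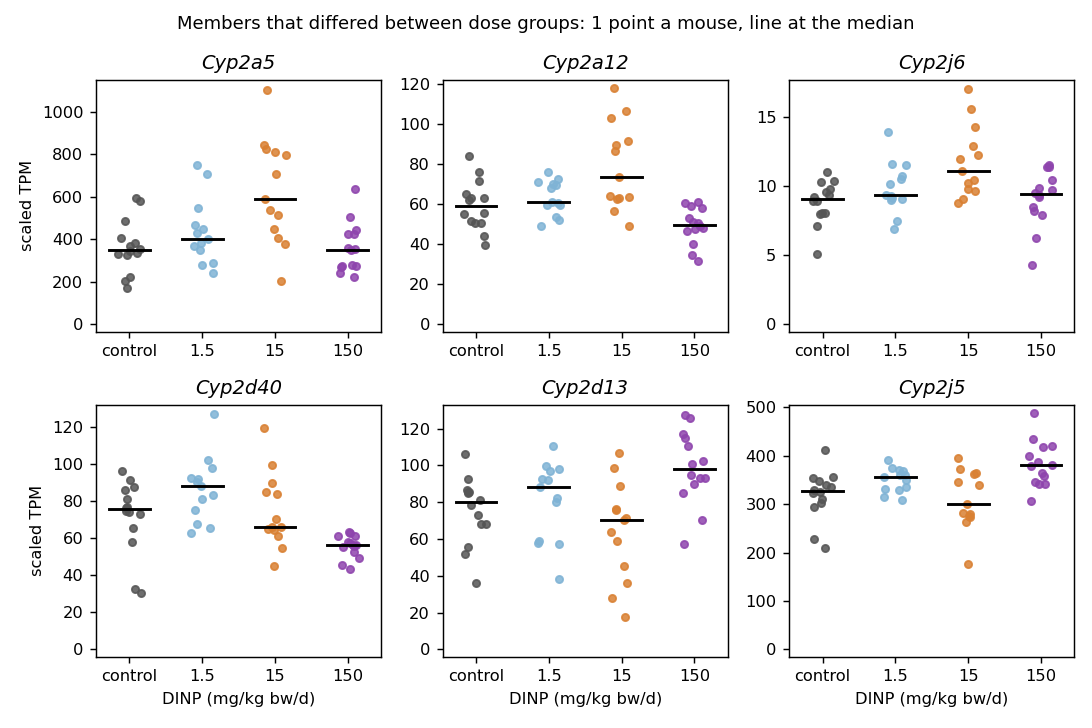
Scaled TPM of Cyp2a5, Cyp2a12, Cyp2j6, Cyp2d40, Cyp2d13 and Cyp2j5 in each mouse by DINP dose, with the median as a line (n = 14, 13, 13 and 14). Cyp2a5, Cyp2a12 and Cyp2j6 have their highest median at 15 mg/kg, Cyp2d13 and Cyp2j5 at 150 mg/kg, and the Cyp2d40 values at 150 mg/kg lie between 43.5 and 63.2.

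Between doses, 8 of 37 members differed at 15 against 150 mg/kg (20% of all rows were called), 2 at 1.5 against 150 mg/kg (4.61% of all rows) and 1 at 1.5 against 15 mg/kg (21.4% of all rows). Without control replicate 8 and 15 mg/kg replicate 7 the last count was 4, and the share of all rows called in that fit is not given. At an unadjusted p under 0.05 the counts were 11, 7 and 11 of 37 in the same order, beside 32.3%, 18% and 33.6% of all rows. At 15 against 150 mg/kg, 6 members were higher (10.1% of all rows) and 2 lower (9.85%), and at 1.5 against 150 mg/kg 2 were higher (2.06%) and 0 lower (2.55%). With a log2 fold change beyond 0.5 the counts were 4 (6.73% of all rows) at 15 against 150, 1 (7.15%) at 1.5 against 15 and 1 (1.64%) at 1.5 against 150 mg/kg. Over the 4 groups the F test of the fit called 8 members (26.7% of all rows). Higher at 15 than at 150 mg/kg were Cyp2a5, Cyp2a12, Cyp2j6, the vitamin D 25-hydroxylase Cyp2r1 (0.44 ± 0.13, adjusted p = 0.011), Cyp2d40 (0.38 ± 0.13, adjusted p = 0.033) and the female-biased Cyp2b13 (1.07 ± 0.34, adjusted p = 0.018). The Cyp2d40 call was lost with no filter (adjusted p = 0.055) and in 5 of 27 fits that left out 1 library of these groups. Cyp2b13 is a low gene, with medians of 2.01 at 15 and 1.00 at 150 mg/kg. Lower at 15 than at 150 mg/kg were Cyp2j5 (-0.32 ± 0.09, adjusted p = 0.0052) and Cyp2d13 (-0.73 ± 0.18, adjusted p = 0.0033), which RefSeq lists as a transcribed pseudogene.

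Cyp2j5 ran from 177 over 301 to 396 at 15 mg/kg and from 306 over 380 to 489 at 150 mg/kg. Only 1 of 13 mice at 15 mg/kg lay above the 150 mg/kg median. Cyp2d13 ran from 17.7 over 70.4 to 107 at 15 mg/kg and from 57.5 over 97.9 to 127 at 150 mg/kg. Cyp2j5 and Cyp2j6, of the same cluster on chromosome 4, differed in opposite directions between these groups. Cyp2d40 ran from 30.6 over 75.7 to 96.4 in control, from 62.7 over 88.3 to 127 at 1.5, from 45.2 over 66.2 to 119 at 15 and from 43.5 over 56.4 to 63.2 at 150 mg/kg. The high-dose group was low and narrow, and all 13 mice at 1.5 mg/kg were above its median. The log2 fold change at 1.5 against 150 mg/kg was 0.61 ± 0.13 (adjusted p = 0.0032). At 150 mg/kg against control it was -0.30 ± 0.13 (adjusted p = 0.25), with 0 of 14 mice above the control median. Cyp2a12 also differed at 1.5 against 150 mg/kg (0.36 ± 0.11, adjusted p = 0.049), a call that was lost in 20 of 27 fits that left out 1 library of these groups. Cyp2c72-ps was higher at 1.5 than at 15 mg/kg (1.11 ± 0.34, adjusted p = 0.015), a call lost in 2 of 10 other settings, with arrays weighted by quality (adjusted p = 0.056) and with a pseudocount of 0.1 (adjusted p = 0.058).

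By role, the 13 CAR and PXR targets listed had 11 members tested, and 1 was called at 15 mg/kg against control (Cyp2a5), 0 at 1.5 and 0 at 150 mg/kg; at unadjusted p under 0.05 each dose had 1. The 3 Ahr targets had 1 member tested, Cyp1a2, which was not called. Of 15 fatty acid epoxygenases listed, 12 were found by their symbol and 11 were tested. Of these 11, 2 were called at 15 mg/kg, Cyp2j6 and Cyp2j9. The list did not hold Cyp2c23 under that symbol. Of 7 members known from around the central vein 1 was called at 15 mg/kg, Cyp2a5. Of 4 female-biased and 2 male-biased members tested, 0 were called against control at any dose; at an unadjusted p under 0.05 there was 1, Cyp2d9 at 1.5 mg/kg. These lists overlap, and their shares stand beside 14.2% of all rows at 15 mg/kg. Without the libraries that stood apart the counts at 15 mg/kg were 2 for CAR and PXR targets, 3 for epoxygenases and 2 for members around the central vein, with Cyp2c37 as the added member (0.68, adjusted p = 0.050). The 14.2% belongs to the fit with all libraries. The share of all rows called without the libraries that stood apart is not given, so these higher counts cannot be set against it.

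Of the sensors and partners of the P450 system, Nr1i3, Nr1i2, Ahr, Por and Alas1 were not called against control at any dose. Nr1i3 had log2 fold changes of 0.26, 0.34 and 0.37 at 1.5, 15 and 150 mg/kg (adjusted p = 0.64, 0.28 and 0.39), Por 0.15, 0.43 and 0.43 (adjusted p = 0.78, 0.080 and 0.19) and Alas1, the first enzyme of heme synthesis, 0.44, 0.44 and 0.66 (adjusted p = 0.54, 0.31 and 0.22). Nr1i2 was lower at 15 than at 150 mg/kg by a log2 fold change of -0.49 ± 0.13 (adjusted p = 0.0058), and Ahr was higher by 0.47 ± 0.13 (adjusted p = 0.0071) at a low level, with means of 2.87 and 1.77. Without the libraries that stood apart these were -0.44 (adjusted p = 0.014) and 0.47 (adjusted p = 0.0096). At 15 against 150 mg/kg, 2 of the 17 sensors and regulators tested were called higher (10.1% of all rows) and 4 lower (9.85%).

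The counts of these lists stand beside 1.2%, 14.2% and 2.17% of all rows called at 1.5, 15 and 150 mg/kg against control, and the genes named from them were chosen after their values were seen. Of 17 sensors and regulators tested, 0 were called at 1.5 mg/kg, 2 at 15 and 1 at 150 mg/kg. At 15 mg/kg the retinoid X receptor Rxra, which pairs with CAR and PXR, was higher (0.43 ± 0.08, adjusted p = 8.1e-05) and its relative Rxrb lower (-0.42, adjusted p = 0.0020). At 150 mg/kg Ppara, the receptor through which fatty acids switch on their own oxidation, was higher (0.58 ± 0.12, adjusted p = 0.0019), with means of 194 against 130 in control and 13 of 14 mice above the control median. Of 9 electron donors and partners, 0, 2 and 1 were called at 1.5, 15 and 150 mg/kg: Pgrmc1 higher (0.63, adjusted p = 0.00075) and Pgrmc2 lower (-0.52, adjusted p = 0.0093) at 15, and Cyb5r1 lower (-0.48, adjusted p = 0.029) at 150 mg/kg. Of 11 heme genes, 2, 3 and 0 were called, all higher. Those at 1.5 mg/kg were the biliverdin reductase Blvra (0.55, adjusted p = 0.0039) and the heme oxygenase Hmox2 (0.32, adjusted p = 0.046), and those at 15 mg/kg Blvra (0.46, adjusted p = 0.0014) and the heme synthesis enzymes Alad (0.38, adjusted p = 0.0016) and Uros (0.50, adjusted p = 0.0059). Without the libraries that stood apart the Hmox2 call was lost (adjusted p = 0.066), and the others of these calls remained.

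Clock genes and zonal markers were listed as well. Of 12 clock genes and outputs tested, 4 were called higher and 0 lower at 15 mg/kg and 8 were not called, beside 7.57% of all rows called higher. Among the 4 were Dbp (1.00, adjusted p = 0.013) and Usp2 (1.37, adjusted p = 0.0090). Without the libraries that stood apart these were 0.90 (adjusted p = 0.031) and 1.31 (adjusted p = 0.017). The summed clock list ran from 91.7 to 340 in control and from 181 to 323 at 15 mg/kg. Of 9 periportal markers, 2 were called higher and 7 were not called, and their sum ran from 1867 to 3032 in control and from 2386 to 3614 at 15 mg/kg. Without the libraries that stood apart 3 were called higher, and the share of all rows called in that fit is not given. With all libraries 8 of the 9 were above 0 at 15 mg/kg (49.8% of all rows). At an unadjusted p under 0.05 there were 5, beside 27% of all rows. At 15 against 150 mg/kg 9 of 9 were above 0 (50.8% of all rows). Of these 3 were called higher and 0 lower, beside 10.1% and 9.85% of all rows. Of 9 pericentral markers that are no members, 0 were called at 15 mg/kg, with 0 at an unadjusted p under 0.05. The part of these genes in the changes of the members was not tested, and in whole liver fewer cells of a type and less RNA per cell cannot be told apart.

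The members differed widely in how much they varied between mice of 1 group. Cyp2c54 had a pooled within-group SD of 1.32 on the log2 scale, Cyp2a4 of 1.17 and the female-biased Cyp2b9 of 1.10, whereas Cyp2d26 had 0.21, Cyp2d22 0.22 and Cyp2j5 0.22. Among 4907 rows of the table whose mean was 10 or more, the median SD was 0.275. Of 27 members with such a mean, 13 lay among the 10% of rows with the widest spread. Cyp2c54 ran from 1.53 in control replicate 8 and 1.77 in 15 mg/kg replicate 7 to 186 in 1.5 mg/kg replicate 12. The spread was narrower than in control for 21 of 37 members at 1.5, 14 at 15 and 30 at 150 mg/kg, beside 49.3%, 26.5% and 46.5% of all rows. Without the libraries that stood apart it was narrower for 14, 13 and 27 of 37, beside 43.7%, 27.8% and 41.5%.

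Some members shared this spread. Over the 666 pairs of tested members the median Pearson correlation between their deviations from the group means was 0.197 (n = 54 livers, given as a description), and 0.0905 without the libraries that stood apart. Of these pairs 27 had a correlation above 0.8 and 3 below -0.8. Libraries that stand apart, and the total to which each was scaled, are shared by all genes. Cyp2c37 and Cyp2c50 had r = 0.97 (rho = 0.90, and r = 0.93 without the libraries that stood apart), a pair whose near-identical sequences could share reads. Cyp2c50 and Cyp2e1, which lie on different chromosomes, had r = 0.90 (rho = 0.74, without them 0.82), Cyp2c54 and Cyp2d9 0.91 (rho = 0.82, without them 0.84) and Cyp1a2 and Cyp2c23 0.88 (rho = 0.86, without them 0.87). Cyp2a4 ran the other way, with r = -0.90 against Cyp2c54 (rho = -0.85, without them -0.86). A second block held Cyp2b9, Cyp2b13, Cyp2a22 and Cyp2c38, where Cyp2b9 and Cyp2c38 had r = 0.79 (rho = 0.86, without them 0.79). Cyp3a11 ran against Cyp2d13 (-0.75, rho = -0.57, without them -0.66). Of the members called at 15 mg/kg, Cyp2a5 and Cyp2a12 had r = 0.39 (rho = 0.41, without them 0.35) and Cyp2j6 and Cyp2j9 -0.25 (rho = -0.27, without them -0.29). Of genes that are no members, Nr1i3 had r = 0.88 with Cyp2e1 (rho = 0.79, without them 0.78) and 0.68 with Cyp2a5 (rho = 0.66, without them 0.54). Over the 11 tested CAR and PXR targets it ran from -0.57 (Cyp2a4, without them -0.29) to 0.87 (Cyp2c50, without them 0.75). With Cyp3a11 Nr1i3 had -0.41 (without them -0.15) and Nr1i2 -0.48 (without them -0.46). Alb, which is no receptor, had 0.75 with Cyp2e1 (without them 0.57). Cyp2a5 had r = 0.59 with Usp2 (rho = 0.64, without them 0.58) and 0.50 with Dbp (rho = 0.52, without them 0.48). The other members called at 15 mg/kg ran lower. With Usp2 they had r from -0.02 (Cyp2c67) to 0.13 (Cyp2j6), and with Dbp from -0.10 (Cyp2a12) to 0.16 (Cyp2j6).

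**Figure D5:**
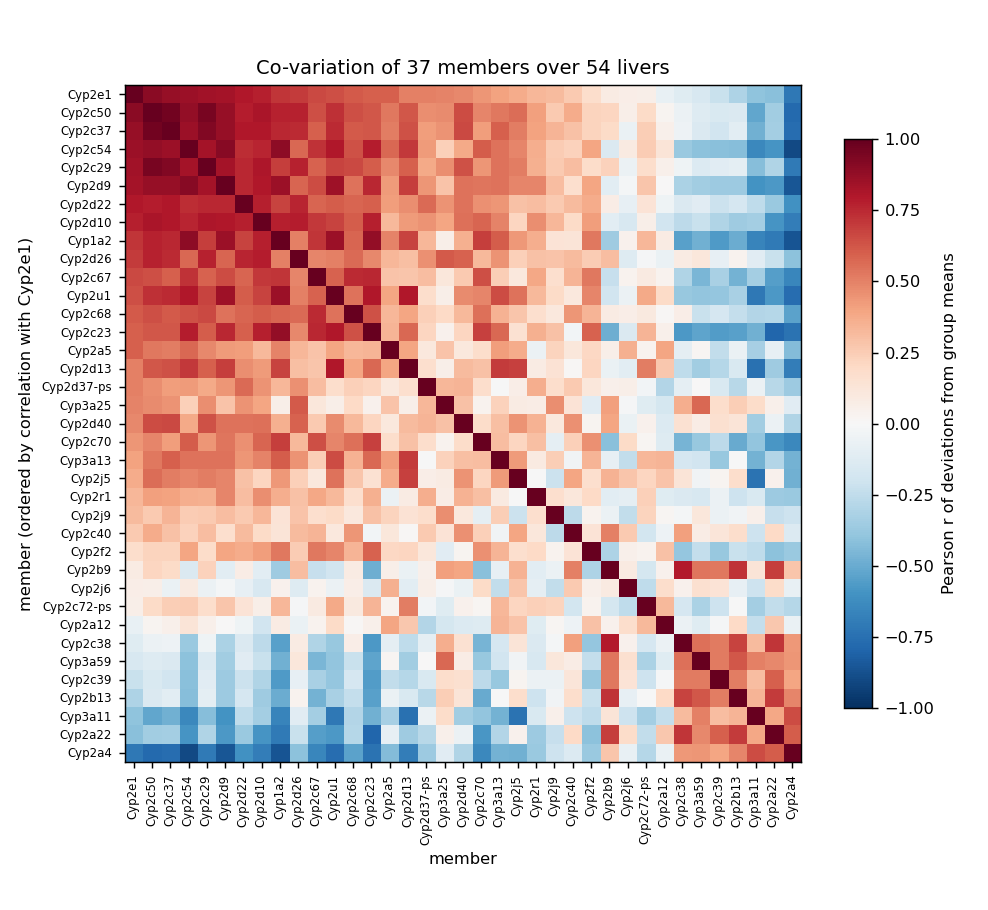
Pearson correlation between the deviations of 37 members from their group means over 54 livers, ordered by correlation with Cyp2e1 (red positive, blue negative). Cyp2e1, most Cyp2c, Cyp2d9 and Cyp1a2 form a red block, the members Cyp2b9, Cyp2b13, Cyp2a22 and Cyp2c38 a smaller red block, and Cyp2a4 and Cyp3a11 run against the first.

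Cyp2a5 and Cyp2a12 stand close on chromosome 7 and shared a direction at 15 against 150 mg/kg, so the bases before their start sites are shown. They come from RefSeq promoter windows of build GRCm38.p6 on the forward strand, chr7:26835089-26835338 for Cyp2a5 and chr7:27028840-27029089 for Cyp2a12, and end at the base before the start that RefSeq gives. RefSeq puts both starts further downstream than the GENCODE gene spans printed above, so the end of each window, with the TATAAA of Cyp2a5, lies inside that gene's GENCODE span. Capitals mark the letters TATAAA.
Cyp2a5: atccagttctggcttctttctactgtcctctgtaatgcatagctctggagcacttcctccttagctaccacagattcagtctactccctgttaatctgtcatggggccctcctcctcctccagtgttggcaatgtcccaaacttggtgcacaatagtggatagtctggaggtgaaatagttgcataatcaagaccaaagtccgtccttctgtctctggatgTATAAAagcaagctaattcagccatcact
Cyp2a12: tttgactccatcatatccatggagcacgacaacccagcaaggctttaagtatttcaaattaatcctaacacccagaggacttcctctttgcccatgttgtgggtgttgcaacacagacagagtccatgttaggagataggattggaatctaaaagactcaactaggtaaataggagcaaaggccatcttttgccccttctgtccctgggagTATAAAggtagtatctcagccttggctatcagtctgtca
Counted from the RefSeq start, TATAAA began at -29 in Cyp2a5, at -39 in Cyp2a12 and at -40 in Cyp2c67. Searched on both strands in windows that also hold 50 bases after the start, TATAAA was present in 22 of 36 members with a window and in 13.6% of all 32851 windows. AGGTCA, a core motif of nuclear receptors, was present in 13 of 36 members and 16.3% of all windows, TTANGTAA, the site of Dbp and its relatives, in 1 and 2.32%, and GCGTG, the core of the Ahr site, in 6 and 32.4%. None of the 4 motifs contains another. A match describes the letters only, and none of the data bear on binding there.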

How the data were processed

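RNA from 54 livers was made into QuantSeq 3′ libraries. Reads went through the nf-core/rnaseq pipeline in the authors' hands, and the submitters' notes name STAR, RSEM, Salmon and GRCm38. The deposited values, a signal derived from TPM, are whole numbers multiplied by 1 factor a sample (0.764 to 1.11), so count models could not be used and depth is unknown. Dividing 3′ reads by length can distort levels between genes. Here log2(value + 1) was fitted with limma 3.58.1 in R 4.3.3 (lmFit, eBayes with trend, 4 groups in 1 fit) for rows with a mean of at least 1, with Benjamini-Hochberg adjustment per contrast. Fold changes are on this scale and understate changes of low genes. The fit was tested on simulated data. Members called in any contrast, the highest of each subfamily and the usual readouts were named; members and lists were chosen with earlier results of these data known. Coding sequences were built from GENCODE M21 and aligned with Biopython 1.88, and the positions of Cyp2d13 and Cyp2c72-ps come from RefSeq. Alternatives covered pseudocount, filter, scaling, sample weights, groups in the fit, a replicate block and single libraries. Fitting without control replicate 8 and 15 mg/kg replicate 7 was chosen after seeing the data.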

Additional observations from a re-analysis of the deposited data

How the results depend on the processing

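The Cyp2a5 calls held under all 11 other settings and every fit without 1 library, and so did those of Cyp2a12, Cyp2j5, Cyp2j6, Cyp2d13 and Cyp2r1 at 15 against 150 mg/kg. The table gives no depth, which limits what can be said of members near 1. Counts of members called moved as follows. Here and in the next paragraphs the share of all rows called in each refit is not given. A move in these counts can therefore not be told from a move in the calls over all rows. At 1.5 mg/kg against control the count was 0, not 1, without the libraries that stood apart, with each sample scaled to the same total, with a minimum mean of 5, with no filter and with a pseudocount of 0.1. At 15 mg/kg against control it was 3 with the same total and with no filter, 2 when only both groups were fitted and 2 with a log2 fold change beyond 0.5. At 150 mg/kg it was 2 when arrays were weighted by quality and 1 with the same total. At 15 against 150 mg/kg it was 4 beyond 0.5. At 1.5 against 15 mg/kg it was 2 with weights, with no filter and with a pseudocount of 5, 3 with quantile normalization, and 4 with the same total and without the libraries that stood apart. At 1.5 against 150 mg/kg it was 1 with no filter, with a pseudocount of 5 and beyond 0.5. The cause was not tested. The log2 fold change of Cyp2f2 at 150 mg/kg turned to -0.061 with the same total, to -0.00653 with quantile normalization and to -0.0111 without the libraries that stood apart; without 1 library at a time it ran from -0.0111 (control replicate 8) to 0.0806 (control replicate 9). None of these had an adjusted p under 0.05.

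Without 1 library at a time the counts ran from 0 to 1 at 1.5, 3 to 7 at 15 and 0 to 1 at 150 mg/kg against control, from 7 to 10 at 15 against 150, 1 to 6 at 1.5 against 15 and 1 to 2 at 1.5 against 150 mg/kg. At 15 mg/kg against control the count was 3 without control replicate 8 or 15 mg/kg replicate 8 and 7 without 15 mg/kg replicate 7. The Cyp2c67 call was lost without control replicate 8 (adjusted p = 0.067), 15 mg/kg replicate 3 (0.067) or 15 mg/kg replicate 8 (0.087). The Cyp2d40 call at 15 against 150 mg/kg was lost with no filter (adjusted p = 0.055). It was also lost without 15 mg/kg replicates 4 (0.066), 6 (0.080) or 8 (0.062). Leaving out 150 mg/kg replicates 2 (0.056) or 8 (0.053) lost it as well. Cyp2j9 lost its call in 15 of 27 such fits, with a highest adjusted p of 0.093, and Cyp2c72-ps against control in 21 of 27, with 0.10.

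Groups share replicate numbers. Over 79 pairs of same-numbered mice the mean correlation of deviations was -0.0025 (-0.36 to 0.24), with 12.7% of pairs above 0.1. Such a mean shows no pairing across all numbers and cannot exclude a weak one or one for some numbers. With the replicate number as a block, 0 members were called at 1.5, 4 at 15 and 0 at 150 mg/kg against control, 8 at 15 against 150, 1 at 1.5 against 15 and 1 at 1.5 against 150 mg/kg.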

Other observations

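Members ran both with and against Saa1, an acute-phase protein of hepatocytes chosen after its values were seen. The correlation of deviations from the group means over 54 livers was lowest for Cyp2c23 at -0.77, Cyp1a2 at -0.76 (rho = -0.78), Cyp2d10 at -0.76, Cyp2d9 at -0.71 and Cyp2c54 at -0.70, and these were -0.73, -0.72, -0.72, -0.67 and -0.64 without control replicate 8 and 15 mg/kg replicate 7. It was highest for Cyp2a4 at 0.75 and Cyp2a22 at 0.70, and 0.71 for both without these libraries. For Cyp3a11 it was 0.43, and for Cyp2a5 -0.25, which was -0.08 without them.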
